A study of Mus musculus with 6 samples.

Results

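The 10 genes described here make, sense or remove prostaglandins: *Pla2g4a*, *Ptgs1*, *Ptgs2*, *Ptges*, *Ptges2*, *Ptges3*, *Ptgis*, *Ptger2*, *Ptger4* and *Hpgd*. They were chosen by name from the 30281 gene symbols in the deposited tables, all 10 were found, and their 31 transcripts were summed per gene in each library. The data were 6 mouse poly(A) RNA-Seq libraries, 1 per condition. A pair came from mouse embryo fibroblasts (MEFs), 1 labelled *Tsc2*+/+ and 1 labelled *Tsc2*-/-, both also labelled p53-/- and both with treatment given as none. The other 4 came from 2 lines of kidney epithelial cells labelled *Tsc2*-null, MKOC and TJ, each left untreated or given 100 nM rapamycin, an inhibitor of mTORC1, for 18 h in medium without serum. TJ cells derive from a secondary tumor grown in C57BL6 mice. Each line is a single line, so a difference between lines is also a difference between every other feature of those cultures, and the genotype of the MEFs cannot be told apart from their culture.

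Prostaglandins are lipid signals made from arachidonic acid. Cytosolic phospholipase A2, the product of *Pla2g4a*, frees arachidonic acid from membranes, and the cyclooxygenases COX-1 (*Ptgs1*, present in many resting cells) and COX-2 (*Ptgs2*, induced by growth factors and inflammation) turn it into prostaglandin H2. Terminal synthases then make prostaglandin E2 (*Ptges*, *Ptges2* and *Ptges3*) or prostacyclin (*Ptgis*). Prostaglandin E2 raises cyclic AMP through its receptors EP2 (*Ptger2*) and EP4 (*Ptger4*), and 15-hydroxyprostaglandin dehydrogenase (*Hpgd*) inactivates it.

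The cyclooxygenase genes differ in sequence at their start sites, and the stretches below are shown because *Ptgs1* was expressed in all 6 libraries and *Ptgs2* mainly in the MEFs. The first is the 250 bases before the annotated start of *Ptgs2* (GRCm38, plus strand, chr1:150099781-150100030), with a GC box and a C/EBP-type palindrome in capitals. The second is 30 bases just after the annotated start of *Ptgs2* (chr1:150100035-150100064), with an overlapping cAMP-response core and E-box in capitals. Whether transcription starts at the annotated base in these cells was not tested. The third is the 250 bases before the start of *Ptgs1* (plus strand, chr2:36230176-36230425).
Ptgs2 before the start: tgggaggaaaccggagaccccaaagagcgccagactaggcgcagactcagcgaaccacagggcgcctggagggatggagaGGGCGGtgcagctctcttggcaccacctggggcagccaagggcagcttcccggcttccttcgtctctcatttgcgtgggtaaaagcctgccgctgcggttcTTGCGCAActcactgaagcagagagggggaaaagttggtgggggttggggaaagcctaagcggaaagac
Ptgs2 after the start: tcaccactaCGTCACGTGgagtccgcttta
Ptgs1 before the start: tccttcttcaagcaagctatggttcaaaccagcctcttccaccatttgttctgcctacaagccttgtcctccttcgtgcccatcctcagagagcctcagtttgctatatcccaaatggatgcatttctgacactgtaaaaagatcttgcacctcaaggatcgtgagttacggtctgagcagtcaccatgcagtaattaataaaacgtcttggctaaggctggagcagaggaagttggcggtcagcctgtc

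The sequences are from RefSeq (GRCm38.p6), whose promoter table, 250 bases before to 50 after each start, held 9 of the 10 genes. The *Ptgs2* stretch has a GC content of 61.6%, against 48.0% for *Ptgs1*. The TATA box was searched as TATAAA, the cAMP-response core as TGACG, the E-box as CACGTG and the GC box as GGGCGG, all on both strands. The C/EBP site was searched as TTGCGCAA, the CCAAT box by its name's letters, and the heat shock element as GAANNTTC. In *Ptgs2* the GC box begins at position -170 and the C/EBP site at -69 from the annotated start, and the cAMP-response core and E-box begin at positions 13 and 16 after it, so that they overlap. The *Ptgs1* window held none of these letter strings. Of all 32851 promoter windows in the table, 0.183% hold the C/EBP site, 7.15% the E-box, 20.8% the cAMP-response core and 35.7% the GC box. These matches are descriptions of letters and not of bound sites.

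Estimated counts per library lay between 22887020 and 37505004. Levels are given in TPM (transcript number relative to all transcripts of the library), which corrects for transcript length, and counts are given where they are few. *Tsc2* RNA was 22.6 TPM in the library labelled *Tsc2*+/+ and 10.5 TPM in the library labelled *Tsc2*-/-. It was 49.1 and 19.5 TPM in untreated and rapamycin-treated MKOC cells and 44.0 and 19.1 TPM in TJ cells. RNA of the gene was therefore present in every library labelled null, and genotypes are given throughout as the labels name them. The paper reports a deletion in its *Tsc2*-/- MEFs and a check that they lack *Tsc2* expression. RNA summed over a gene does not show whether that RNA is intact. *Trp53* RNA was likewise present in both MEF libraries, at 26.3 and 28.5 TPM. Transcripts shorter than 300 bases took 20.9% of all TPM in *Tsc2*+/+ MEFs but 7.12% in *Tsc2*-/- MEFs, and the median gene was 0.45 higher (log2, 1 TPM added) in *Tsc2*-/- MEFs. A scaling that sets the median ratio to 1 was therefore run beside the deposited TPM.

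The labelled cell types were checked against marker genes, which also showed other cell types' markers. The summed level of 10 fibroblast markers was 1888 and 2524 TPM in the MEFs against 7.75 to 52.0 TPM in the kidney libraries. That of 10 kidney epithelial markers was 1655 to 2882 TPM in the kidney libraries, with 8 of 10 at 1 TPM or more in each, although *Epcam* was at most 0.027 TPM there. In the MEFs it was 0.467 and 85.3 TPM. The *Tsc2*-/- MEFs also held 7 of 8 mesothelial markers at 1 TPM or more, with a summed level of 533 TPM against 2.71 TPM in *Tsc2*+/+ MEFs. *Upk3b* (154 TPM) was the highest of them there, and the keratins *Krt18* and *Krt19* were at 20.6 and 55.6 TPM. The kidney libraries summed to 71.0 to 152 TPM of mesothelial markers, nearly all of it *Msln* (69.5 to 150 TPM, against 60.6 TPM in *Tsc2*-/- MEFs). Of 9 macrophage and leukocyte markers 2 or 3 reached 1 TPM in each library, while *Ptprc* stayed at or below 0.073 TPM and *Tyrobp* was at 0 in all 6. The 8 endothelial markers summed to 1.02 to 4.39 TPM.

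Most of the genes fell into 3 ranges of level. *Ptges3* was the highest in every library, at 151 to 238 TPM. *Ptgs1*, *Pla2g4a* and *Ptges2* were expressed in every library, between 16.3 and 108 TPM. *Ptger2* and *Hpgd* stayed below 0.4 TPM in all 6 libraries. The others depended on the cell: *Ptgs2* reached 57.6 TPM in fibroblasts and at most 0.058 TPM in kidney cells, and *Ptgis* ranged from 0.740 to 49.8 TPM. Bulk RNA cannot tell fewer expressing cells from less RNA per cell.

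**Figure D1:**
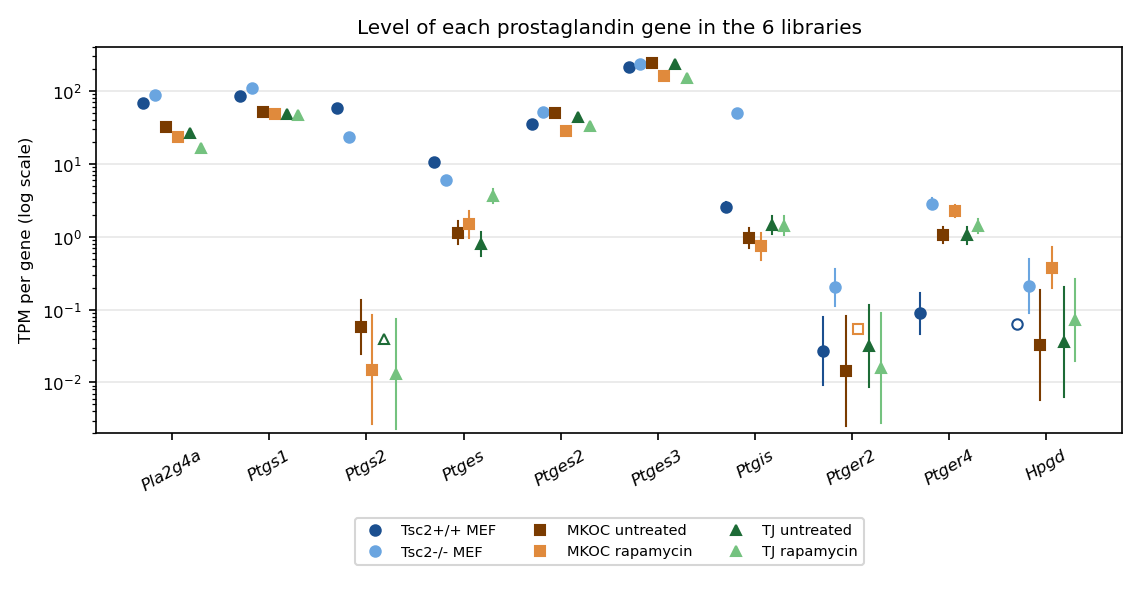
Level of each of the 10 genes (TPM, log axis) in the 6 libraries, 1 point per library, with 95% Wilson intervals that cover counting error only. Open symbols stand at the level of 3 counts where the library had 0 counts. *Ptgs2* is at 23.6 and 57.6 TPM in the MEF libraries and at or below 0.058 TPM in the 4 kidney libraries, while *Ptges3* stays between 151 and 238 TPM throughout.

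*Pla2g4a*, the phospholipase that opens the pathway (chr1:149829618-149961290, minus strand), was at 68.6 TPM in *Tsc2*+/+ and 87.8 TPM in *Tsc2*-/- MEFs. It was at 32.4 TPM in untreated and 23.3 TPM in rapamycin-treated MKOC cells, and at 26.8 and 16.3 TPM in TJ cells. Both fibroblast libraries were thus above all 4 kidney libraries, and the lower fibroblast library was 2.12-fold (95% counting interval 2.01 to 2.24) above the highest kidney library. Between 98.7% and 100% of its counts came from 1 protein-coding transcript. *Pla2g4a* and *Ptgs2* lie 139 kb apart on chromosome 1, and in kidney cells the first was at 16.3 to 32.4 TPM and the second at 0.058 TPM or less.

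*Ptgs1*, which encodes COX-1 (chr2:36230426-36252272, plus strand), was at 84.7 TPM in *Tsc2*+/+ and 108 TPM in *Tsc2*-/- MEFs. Its level was 51.7 and 48.0 TPM in untreated and treated MKOC cells and 48.4 and 47.4 TPM in TJ cells. The 4 kidney libraries were therefore within 47.4 to 51.7 TPM, where the counting intervals of all pairs overlapped except untreated MKOC and treated TJ, and both MEF libraries were higher. The lower MEF library stood 1.64-fold (1.57 to 1.72) above the highest kidney library. Between 95.3% and 98.6% of its counts, but 77.2% to 92.0% of its TPM, were from the full-length protein-coding transcript. That transcript alone was at 47.5 and 37.1 TPM in untreated and treated MKOC cells and at 38.0 and 40.4 TPM in TJ cells. The narrow range of the summed TPM in kidney cells therefore rests partly on the shorter transcripts.

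*Ptgs2*, which encodes COX-2 (chr1:150100031-150108227, plus strand), was at 57.6 TPM (7752 counts) in the *Tsc2*+/+ library and at 23.6 TPM (1534 counts) in the *Tsc2*-/- library. The kidney libraries had 5 counts in untreated MKOC, 1 in treated MKOC, 0 in untreated TJ and 1 in treated TJ. The 0 of 26992039 counts in untreated TJ cells allows a level of up to 0.0389 TPM. The lower fibroblast library was 407-fold (174 to 1254) above the highest kidney library, and 2% of the 13913 genes compared had a ratio that large. *Ptgs2* shares no stretch of 31 bases with any other annotated gene, *Ptgs1* included, so these reads were not split between the cyclooxygenases. In the kidney cells *Ptgs1* thus accounted for nearly all cyclooxygenase RNA, whereas in *Tsc2*+/+ MEFs the levels of *Ptgs1* and *Ptgs2* were within a factor of 1.47 of each other.

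*Ptges*, which encodes the inducible microsomal prostaglandin E synthase mPGES-1 (chr2:30889471-30929863, minus strand), was at 10.7 TPM in *Tsc2*+/+ and 5.99 TPM in *Tsc2*-/- MEFs. It had 30 and 21 counts in untreated and treated MKOC cells and 25 and 72 counts in TJ cells, or 1.14, 1.48, 0.789 and 3.63 TPM. The MEF libraries were again the highest, by at least 1.65-fold (1.27 to 2.18), although the treated TJ library came closest. In treated TJ cells 65.9% of the gene's TPM came from a short processed transcript. The protein-coding Ptges-202 alone was at 4.61 TPM in *Tsc2*-/- MEFs and 0.933 TPM in treated TJ cells.

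*Ptges2*, the membrane-associated mPGES-2 (chr2:32395896-32405772, plus strand), was at 35.6 and 51.2 TPM in *Tsc2*+/+ and *Tsc2*-/- MEFs. It was at 50.4 and 28.5 TPM in untreated and treated MKOC cells and at 43.6 and 33.3 TPM in TJ cells, so fibroblast and kidney libraries overlapped. Most of that TPM came from a short transcript with a retained intron (765 bases), which held 84.5% to 88.5% of the gene's TPM and 45.2% to 49.2% of its counts. The main protein-coding transcript (4978 bases) was at 3.21 to 6.28 TPM. The level of the gene per length therefore rests on how reads were divided between these models.

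*Ptges3*, which encodes p23 (chr10:128058954-128077272, plus strand), is an Hsp90 co-chaperone also described as a cytosolic prostaglandin E synthase. It was at 213 and 231 TPM in *Tsc2*+/+ and *Tsc2*-/- MEFs. In MKOC cells it was at 238 TPM untreated and 160 TPM treated, and in TJ cells at 236 and 151 TPM. The 2 rapamycin libraries were the lowest of the 6, and the other 4 were within 213 to 238 TPM. Of its 31-base words 20.9% also occur in other genes, mostly in the copy *Ptges3-ps* (listed in the deposited table as *Gm9769*), to which 13.5% to 15.8% of the counts of the pair were assigned in each library, so the split between gene and copy is uncertain.

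*Ptgis*, prostacyclin synthase (chr2:167191805-167240604, minus strand), was detected with 156 counts in *Tsc2*+/+ and 1393 in *Tsc2*-/- MEFs, or 2.58 and 49.8 TPM. In the kidney libraries it had 21 to 46 counts, or 0.740 to 1.43 TPM. The *Tsc2*-/- MEF library alone was high, and *Tsc2*+/+ MEFs were 1.81-fold (1.30 to 2.57) above the highest kidney library. A second protein-coding transcript, Ptgis-202, took 22.1% of the counts in *Tsc2*-/- MEFs (308 counts) and 0 of 156 in *Tsc2*+/+ MEFs.

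The receptors were low. *Ptger2* (EP2; chr14:44988195-45003820, plus strand) had 3 and 11 counts in *Tsc2*+/+ and *Tsc2*-/- MEFs and 0 to 2 counts in the kidney libraries, at most 0.203 TPM. *Ptger4* (EP4; chr15:5206661-5244187, minus strand) had 9 and 137 counts in the MEFs, or 0.088 and 2.84 TPM. It was at 1.05 and 2.25 TPM in untreated and treated MKOC cells and at 1.04 and 1.39 TPM in TJ cells. *Ptger4* was therefore above *Ptger2* in 6 of 6 libraries, although in *Tsc2*+/+ MEFs, on 9 against 3 counts, their counting intervals overlapped. For *Ptger4*, *Tsc2*+/+ MEFs were the lowest and *Tsc2*-/- MEFs the highest. The interval of the highest (2.40 to 3.36 TPM) overlapped that of treated MKOC cells (1.86 to 2.71 TPM). Of the 31-base words of *Ptger4* 15.2% are shared, mainly with the antisense gene *Gm15937*, which had at most 1 count. How Kallisto was told to use strand was not stated in the sources used here.

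*Hpgd*, the enzyme that inactivates prostaglandin E2 (chr8:56294585-56321043, plus strand), had 0 and 5 counts in *Tsc2*+/+ and *Tsc2*-/- MEFs. It had 1 and 9 counts in untreated and treated MKOC cells and 1 and 2 counts in TJ cells, at most 0.375 TPM. These counts are too few to order most of the libraries. The 0 of 37505004 counts in *Tsc2*+/+ MEFs allows up to 0.0623 TPM.

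**Figure D2:**
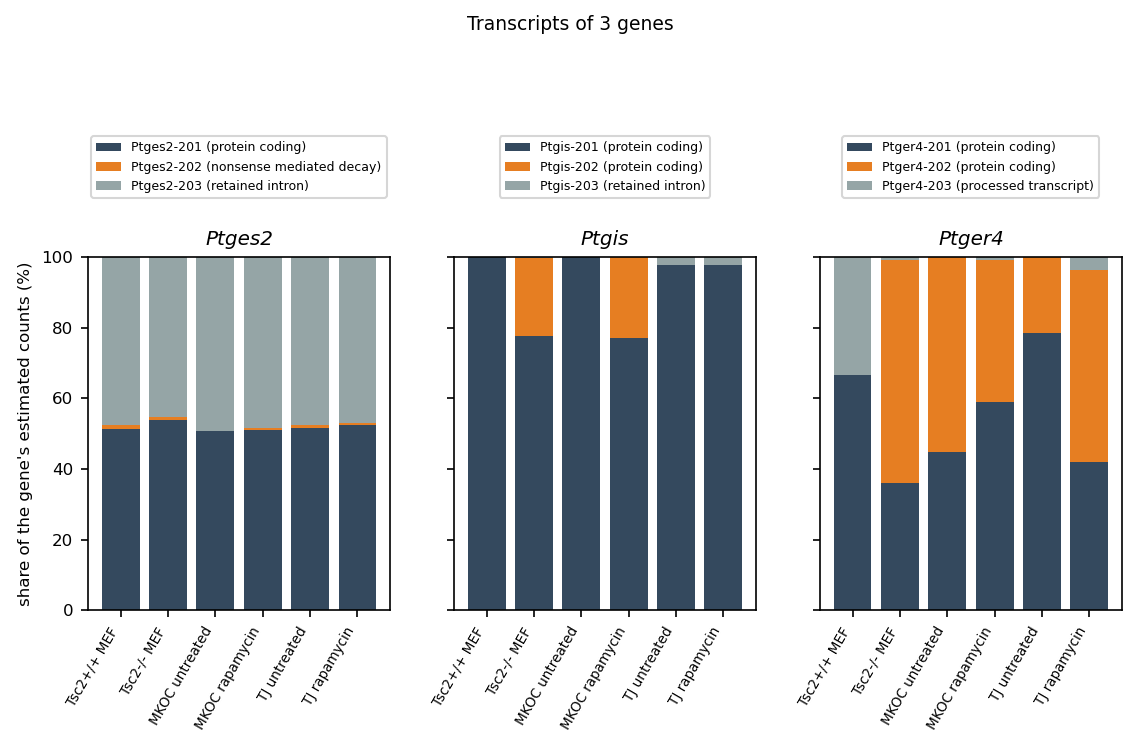
Share of each gene's estimated counts (%) assigned to its annotated transcripts in the 6 libraries, for *Ptges2*, *Ptgis* and *Ptger4*. The retained-intron transcript of *Ptges2* takes 45.2% to 49.2% in every library, and Ptgis-202 takes 22.1% in *Tsc2*-/- MEFs and 22.9% in treated MKOC cells, the latter on 4.81 of 21 counts. The *Ptger4* shares rest on 9 to 137 counts per library.

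Across the 6 libraries, the MEF and kidney levels did not overlap for 5 of the 10 genes (*Pla2g4a*, *Ptgs1*, *Ptgs2*, *Ptges* and *Ptgis*), and in all 5 the MEFs were higher. All 5 are among the 8 genes that reached 1 TPM in at least 1 library, which *Ptger2* and *Hpgd* did not. Over all 13913 genes that reached it, 21.4% had both MEF libraries above all 4 kidney libraries and 26.8% the reverse. Cell type, genotype and line differ together here and cannot be told apart. The paper states that its cells were maintained in medium with serum. Whether the sequenced MEFs were moved to the medium without serum used for the kidney cells is not given clearly in the sources used here. The genes whose pattern over the 6 libraries was most like that of *Ptgs2*, by Pearson's r of log2(TPM + 1), were *Xkr6*, *Cd248* and *Vegfc* (r = 0.9999 each), and 121 of 11436 genes were above 0.99. Those most like *Ptgs1* were *Abca8b* (0.9994), *Serpina3i* (0.998) and *Npc1* (0.998), with 131 genes above 0.99. These are descriptions over 6 points that share the step from fibroblasts to kidney cells.

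The first comparison asks how the genes differ between the MEFs labelled *Tsc2*-/- and those labelled *Tsc2*+/+, although *Tsc2* RNA was present in both. The inducible cyclooxygenase was lower and prostacyclin synthase and EP4 were higher in the library labelled *Tsc2*-/-. *Ptgs2* was 2.44-fold lower (counting interval 2.31 to 2.57), *Ptgis* was 19.3-fold higher (16.3 to 22.9) and *Ptger4* was 32.1-fold higher (16.4 to 71.8) in TPM. On the log2 scale with 1 TPM added these ratios were -1.25, 3.83 and 1.82, and 3 of the 8 genes at 1 TPM or more in either library were past 2-fold. Over all 12771 genes at that level, 30.4% were past 2-fold, 25.2% higher and 5.18% lower in MEFs labelled *Tsc2*-/-, so the share among the 8 genes was near the background. Scaled to a median ratio of 1, 4 of the 8 genes were past 2-fold, against 16.1% of all genes higher and 8.35% lower. With 1 library per genotype there was no replicate check and no test.

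*Ptges*, the synthase that usually works with COX-2, was also lower in MEFs labelled *Tsc2*-/-, at a TPM ratio of 0.560 (0.485 to 0.644), or -0.74 on the log2 scale with 1 TPM added. It passed 2-fold once the libraries were scaled to a median ratio of 1 (-1.07) or compared by counts over the library total (CPM, -1.12). *Ptges2* had a log2 ratio of 0.51 with the deposited TPM and 0.13 when scaled. *Pla2g4a* (0.35) and *Ptgs1* (0.35) were at -0.03 and -0.04 when scaled, and *Ptges3* (0.12) was at -0.27, so no direction can be given for these 3. *Ptgs2* stayed below and *Ptgis* and *Ptger4* stayed above in all 4 scalings, with *Ptgs2* between -1.68 and -1.25. *Ptger4* rests on 9 counts in the *Tsc2*+/+ library, and its log2 ratio was 0.62 with 5 TPM added.

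**Figure D3:**
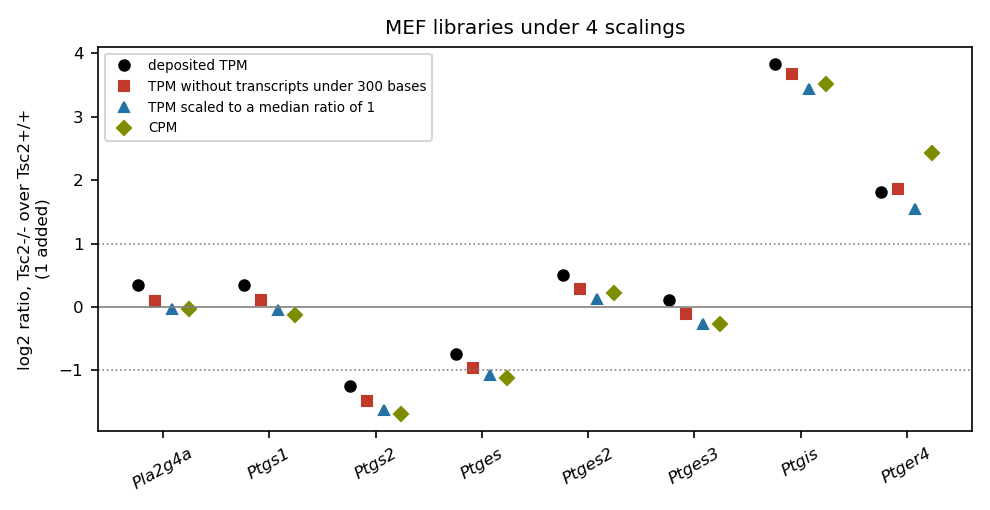
Log2 ratio of *Tsc2*-/- over *Tsc2*+/+ MEFs (1 added) for the 8 genes at 1 TPM or more in either library, 1 point per scaling; dotted lines mark 2-fold and each genotype has 1 library. *Ptgs2* lies between -1.68 and -1.25 under the 4 scalings and *Ptgis* above 3.4, while *Pla2g4a*, *Ptgs1* and *Ptges3* lie on both sides of 0.

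*Ptger2* had a ratio of 7.46 (1.97 to 41.6) on 3 against 11 counts. *Hpgd*, at 5 counts against 0, stood 3.37-fold higher when the *Tsc2*+/+ library was set to a floor of 3 counts per library. The lower end of its counting interval was 1.85. The mesothelial markers moved with *Ptgis* and *Ptger4* (533 against 2.71 TPM, 7 of 7 compared higher in MEFs labelled *Tsc2*-/-), as did the kidney epithelial markers (85.3 against 0.467 TPM). Their part in these differences was not tested.

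The second comparison asks what rapamycin changed in the kidney cells, with the MKOC and TJ lines as the only replicates. Of the 7 genes with enough counts to be tested, *Ptges3*, *Pla2g4a* and *Ptges2* fell, 0 rose and 4 did not pass. Among all 12952 genes tested, 34.9% passed, 17.5% higher and 17.4% lower, and the median log2 fold change was 0.015. The 3 of 7 is therefore close to the background share.

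*Ptges3* fell by 0.61 on the log2 scale (SE 0.096, adjusted p = 0.00102, quasi-likelihood test of edgeR, Benjamini-Hochberg over all genes). Treated over untreated TPM was 0.671 (counting interval 0.647 to 0.696) in MKOC and 0.641 (0.619 to 0.665) in TJ cells. With the counts of the copy *Gm9769* added, the fall was 0.63 (adjusted p = 0.000928, edgeR). *Pla2g4a* fell by 0.63 (SE 0.12, adjusted p = 0.00312, edgeR), with TPM ratios of 0.719 (0.664 to 0.778) in MKOC and 0.610 (0.556 to 0.668) in TJ cells. *Ptges2* fell by 0.60 (SE 0.14, adjusted p = 0.00780, edgeR), with ratios of 0.566 (0.507 to 0.632) and 0.763 (0.688 to 0.847). The fall of *Ptges3* was nearly equal in the 2 lines, that of *Pla2g4a* was larger in TJ and that of *Ptges2* larger in MKOC. With 1 library per line and treatment, the difference between lines was not tested. Without the cell line in the model (no replicate block), *Ptges3* still passed (adjusted p = 0.0309, edgeR), whereas *Pla2g4a* (0.163) and *Ptges2* (0.0684) did not.

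*Ptgs1* had a log2 fold change of -0.13 (SE 0.12, adjusted p = 0.432, edgeR), with TPM ratios of 0.929 (0.872 to 0.988) in MKOC and 0.978 (0.919 to 1.04) in TJ cells. *Ptger4* had a log2 fold change of 0.77 (SE 0.29, adjusted p = 0.0626, edgeR), which did not pass, with ratios of 2.13 (1.56 to 2.94) in MKOC and 1.34 (0.944 to 1.92) in TJ cells. Without the filter on low counts the adjusted p of *Ptger4* was 0.0189 (edgeR). *Ptgis* had a log2 fold change of -0.21 (SE 0.34, adjusted p = 0.664, edgeR) on 21 to 46 counts per library. The COX-1 value had a small standard error, whereas those of *Ptger4* and *Ptgis* were wide.

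*Ptges* had a log2 fold change of 0.75 (SE 0.43, adjusted p = 0.205, edgeR), and the lines went apart: the TPM ratio was 4.60 (2.88 to 7.56) in TJ and 1.30 (0.707 to 2.34) in MKOC cells. The counts gave less. In the line alone, the log2 change of CPM scaled with the factors of edgeR, with no model fitted, was 1.49 in TJ and -0.15 in MKOC. By CPM with 1 added it was 0.95 and -0.06, so no direction can be given for MKOC. With 1 TPM added, *Ptges* in TJ was the only value of the 10 genes past 2-fold within a line (log2 1.37), against 5.66% of genes in TJ (3.42% higher) and 6.22% in MKOC cells. Much of the TPM in treated TJ cells was a short processed transcript, Ptges-203 (446 bases), at 2.39 TPM on 11.3 counts against 0.422 TPM on 2 counts untreated. The protein-coding Ptges-202 went from 23 to 58.7 counts, a log2 ratio of 0.50 with 1 TPM added. *Ptgs2*, *Ptger2* and *Hpgd* had too few counts for the test. *Hpgd* in MKOC cells, at 9 counts treated against 1 untreated, had a TPM ratio of 11.6 (1.61 to 508).

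**Figure D4:**
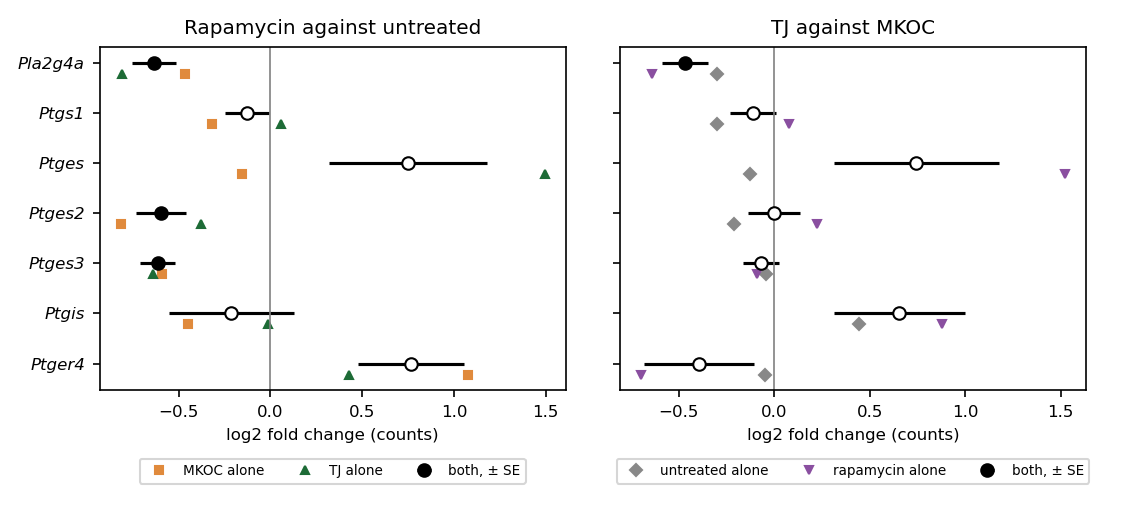
Log2 fold change of counts in the kidney lines for the 7 genes tested: rapamycin against untreated (left) and TJ against MKOC (right). Black circles are the edgeR estimates over both lines or treatments ± SE, filled where the adjusted p was under 0.05, and coloured symbols are the same change in 1 line or treatment alone. *Pla2g4a*, *Ptges2* and *Ptges3* lie below 0 in both lines under rapamycin, and *Pla2g4a* is the filled point on the right.

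Keratins and other epithelial markers moved with the treatment. Of 8 kidney epithelial markers tested 4 rose, against 17.5% of all genes, for example *Krt7* (log2 fold change 1.16, adjusted p = 3.33e-05, edgeR), and the summed level went from 1655 to 2565 TPM in MKOC and from 1844 to 2882 TPM in TJ cells. Of 7 fibroblast markers tested 2 rose, and of 3 macrophage and leukocyte markers 2 rose, *Csf1r* and *Cd14*, while *Ptprc* and *Tyrobp* were at or near 0. Of 2 mesothelial markers 1 rose, and 0 of 3 endothelial markers passed, also at an unadjusted p under 0.05 (edgeR and limma). DESeq2 tested 2 of these 3, and 0 passed. Without the cell line in the model, 3 of the 8 epithelial markers still passed, whereas the calls of the fibroblast, macrophage and mesothelial markers were lost (*Csf1r* adjusted p = 0.575 and *Cd14* 0.218, edgeR). *Csf1r* also did not pass with limma. Their part in the changes of the prostaglandin genes was not tested.

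The third comparison sets the tumor-derived TJ line against MKOC over both treatments. *Pla2g4a* was lower in TJ cells by a log2 fold change of -0.47 (SE 0.12, adjusted p = 0.0423, edgeR), and was the only one of the 7 tested genes to pass. Of all 12952 genes, 8.79% passed, 5.47% higher and 3.32% lower in TJ. The call lies at the threshold: the adjusted p was 0.0514 with another normalization (edgeR, RLE size factors), 0.111 with DESeq2 and 0.144 with limma, and it was also lost without the treatment term. *Ptgs1* (-0.11, SE 0.12), *Ptges2* (0.00, SE 0.14) and *Ptges3* (-0.07, SE 0.095) were within 1 SE of 0. *Ptges* (0.74, SE 0.43), *Ptgis* (0.66, SE 0.34) and *Ptger4* (-0.39, SE 0.29) did not pass either, on wider errors. This contrast is between 2 lines, 1 of each kind.

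Other genes of prostanoid metabolism were taken from a list of 30, of which 29 were in the tables and 18 could be tested for rapamycin. Of these 5 rose, 3 fell and 10 did not pass, against 17.5% of all genes higher and 17.4% lower. In the model without the cell line, 2 of the 18 rose and 0 fell, with 6 at an unadjusted p under 0.05 (edgeR). The largest change was in *Slco2a1*, the prostaglandin transporter that takes prostaglandins up into cells. It was at 6.20 and 15.5 TPM in untreated and treated MKOC cells and at 6.62 and 26.0 TPM in TJ cells, a log2 fold change of 1.67 (SE 0.14, adjusted p = 2.92e-05, edgeR). *Ptgr1*, a reductase of prostaglandin and leukotriene metabolites, went from 37.3 to 19.3 TPM in MKOC and from 78.7 to 42.7 TPM in TJ cells, and fell by 0.92 (SE 0.11, adjusted p = 0.000197, edgeR). *Slco2a1* passed in all 9 settings tried, and *Ptgr1* in 8 of 9, not without the cell line in the model.

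Among the other receptors, *Ptger1* (EP1) rose by a log2 fold change of 0.59 (adjusted p = 0.00716, edgeR) and *Ptgfrn*, a membrane protein that associates with the prostaglandin F receptor, by 0.42 (adjusted p = 0.00808, edgeR). *Ptger3* and the thromboxane receptor gene *Tbxa2r* were not tested for lack of counts. Neither *Ptger1* nor *Ptgfrn* passed once the cell line was left out of the model (adjusted p = 0.0556 and 0.0673, edgeR). *Pla2g6*, a calcium-independent phospholipase A2, rose by 0.76 (adjusted p = 0.00193, edgeR), in the opposite direction to *Pla2g4a*, while *Pla2g4c*, at 0.399 to 1.52 TPM in kidney cells, had a log2 fold change of 1.05 and did not pass (adjusted p = 0.0947, edgeR). Of the synthases, *Akr1b3*, an aldose reductase with prostaglandin F synthase activity, fell by 0.44 (adjusted p = 0.00744, edgeR, and 0.109 without the cell line) whereas *Akr1c18* had a log2 fold change of 0.43 at the threshold (adjusted p = 0.0436, edgeR). The *Akr1c18* call held in 5 of 9 settings and was lost with RLE size factors, DESeq2, limma and without the cell line, with adjusted p up to 0.230. *Ptgds*, prostaglandin D synthase, was at 79.1 to 146 TPM in kidney cells and 3.21 and 8.51 TPM in MEFs, with a rapamycin change of 0.28 (adjusted p = 0.0668, edgeR).

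In the MEFs 16 of these genes could be compared, and 9 were past 2-fold higher and 2 lower in those labelled *Tsc2*-/-, against the background of 25.2% and 5.18%. Scaled to a median ratio of 1, 5 were higher and 3 lower of 16, against 16.1% and 8.35% of all genes. The receptor for prostaglandin F2α, *Ptgfr*, was at 103 TPM in MEFs labelled *Tsc2*+/+ and 2.72 TPM in those labelled *Tsc2*-/- (9711 and 149 counts; log2 ratio -4.81), and had 0 to 5 counts in the kidney libraries. It was the most abundant of the listed prostanoid receptors in *Tsc2*+/+ MEFs, where EP2 and EP4 RNA were below 0.1 TPM. *Slco2a1* went the other way, at 0.161 and 20.3 TPM (log2 ratio 4.19). *Mgll*, a lipase that yields arachidonic acid from 2-arachidonoylglycerol, was at 0.127 and 13.1 TPM (3.65), and *Ptgr1* at 8.22 and 37.4 TPM (2.06). These 4 kept their direction under all 4 scalings. *Cbr1*, a carbonyl reductase, had 658 and 793 counts (log2 ratio of TPM 1.24), but past 2-fold not under every scaling (lowest 0.86).

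Because *Ptges3* encodes an Hsp90 co-chaperone, 10 genes of Hsp90 and its co-chaperones were set beside it. Of these 10, 5 fell, 1 rose and 4 did not pass under rapamycin, against 17.4% of all genes lower and 17.5% higher. Without the cell line in the model, 2 of the 10 fell and *Fkbp4* and *Hspa8*, described next, did not pass (adjusted p = 0.0738 and 0.0613, edgeR). *Stip1*, an adaptor between Hsp70 and Hsp90, fell by 0.61 (adjusted p = 0.00132, edgeR), from 432 to 293 TPM in MKOC and from 441 to 283 TPM in TJ cells. *Fkbp4*, an immunophilin bound to Hsp90, fell by 0.58 (adjusted p = 0.00188, edgeR), whereas *Hspa8*, the constitutive Hsp70, rose by 0.64 (adjusted p = 0.00286, edgeR). *Hsp90ab1* had a log2 fold change of 0.25 (adjusted p = 0.162, edgeR) and did not pass. The fall of *Ptges3* was of the size of those of *Stip1* and *Fkbp4*.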

How the data were processed

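The authors trimmed paired-end reads of stranded poly(A) libraries (Trimmomatic 0.32) and ran Kallisto, whose version is not given in the sources used here. The methods section gives hg38 as the reference, whereas the 88198 deposited transcripts have mouse Ensembl identifiers. For each transcript the authors deposited TPM, estimated counts and lengths, and in a second table a fold ratio per transcript, of which only the gene symbols were used. Both measures were summed per symbol, and the 1006 transcripts without a symbol (0.372% to 0.468% of counts) were left out. Totals were 37505004 (*Tsc2*+/+ MEF), 24010446 (*Tsc2*-/- MEF), 30079631 and 22887020 (MKOC, untreated and rapamycin) and 26992039 and 26505929 (TJ). Intervals are 95% (Wilson for levels, exact conditional for ratios) and cover counting error only, and the floor is 3 counts. Positions are from GENCODE M21 (GRCm38). Motifs were chosen after the *Ptgs2* sequence had been read.

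Kidney libraries were tested with edgeR 4.0.16 (quasi-likelihood, counts rounded, filterByExpr, TMM, line and treatment as terms, Benjamini-Hochberg at 0.05). The line is a block because the labels name the line of each library. Deviations of the libraries of a line correlated at r = 0.522 over 12952 genes. For rapamycin, p-values rest on how far the change differed between the 2 lines, with information on spread shared across genes. For TJ against MKOC, they rest on how far the difference between the lines changed with treatment. MEFs were compared as log2 ratios with 1 TPM added over genes of at least 1 TPM in either library, with no test. Alternatives were DESeq2 1.42.0, limma 3.58.1 on log2(TPM + 0.5), RLE and upper-quartile scaling, no filter, no line or treatment term, short transcripts (under 300 bases) left out, other pseudocounts (0.1, 0.5 and 5 TPM), median scaling and CPM. The steps were tested on simulated data.

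All 10 genes are named. Of each other list that is not a marker list, the named genes are the 2 with the lowest adjusted p for rapamycin and the 2 with the highest TPM. Marker lists are given by summed level, with *Krt7*, *Krt18*, *Krt19*, *Csf1r*, *Cd14*, *Msln* and *Upk3b* named after their values were seen. *Epcam*, *Ptprc*, *Tyrobp*, *Ptger3*, *Tbxa2r*, *Tsc2* and *Trp53* were added. The lists cover prostanoid genes, lipoxygenase and leukotriene genes, *Ptgs2* regulators, cAMP-response genes, Hsp90 co-chaperones and markers of fibroblast, kidney epithelial, macrophage, endothelial and mesothelial cells. Members and lists were chosen with earlier results of these data known. Other software was Python 3.11.15, pandas 2.3.3, scipy 1.17.1, matplotlib 3.10.9 and R 4.3.3.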

Additional observations from a re-analysis of the deposited data

How the results depend on the processing

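For rapamycin, 3 of the 7 genes passed in edgeR and under the alternatives run, except without the filter, where *Ptger4* made 4, and without the cell line (no replicate block), where 1 passed (*Ptges3*), with 1275 of all genes passing against 4526. *Pla2g4a* and *Ptges2* then had adjusted p of 0.163 and 0.0684 (edgeR). For TJ against MKOC, *Pla2g4a* did not pass with RLE size factors, DESeq2, limma or without the treatment term, leaving 0 of the 7 genes in each of these. Of all genes, 1139 passed in edgeR, 1753 without the filter, 611 with DESeq2, 692 with limma and 0 without the treatment term (no replicate block), where 702 had an unadjusted p under 0.05. In the MEFs 2 to 4 of the 10 genes were past 2-fold under the alternatives, against 3, and 2139 of all genes were past 2-fold with 5 TPM added, against 3884. The cause of these changes was not tested. A line or treatment alone leaves no residual degrees of freedom, so no counts of calls could be had. Log2 values from each line alone ranged from -0.81 (TJ) to -0.47 (MKOC) for *Pla2g4a*, -0.64 to -0.59 for *Ptges3*, -0.82 to -0.38 for *Ptges2*, -0.32 to 0.06 for *Ptgs1*, 0.43 to 1.08 for *Ptger4* and -0.15 to 1.49 for *Ptges*. In TJ against MKOC, *Pla2g4a* was -0.30 in untreated and -0.64 in treated cells. No called value reversed. Depth limits *Ptgs2* in kidney cells, *Ptger2* and *Hpgd*, whose counts were mostly at or under the floor.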

Other observations

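Genes that act around COX-2 were read from further lists. Of 14 tested regulators and inducers of *Ptgs2*, 6 rose with rapamycin, 1 fell and 7 did not pass, against 17.5% of all 12952 genes higher and 17.4% lower. *Nfkbia*, the inhibitor of NF-kB, rose by a log2 fold change of 0.82 (adjusted p = 0.000608, edgeR), from 22.5 to 36.8 TPM in MKOC and from 41.5 to 79.8 TPM in TJ cells. *Nfkb1* rose by 0.68 (adjusted p = 0.000855, edgeR) and *Rela* by 0.46 (adjusted p = 0.00638, edgeR), while *Ptgs2* itself had at most 1 count in the treated libraries. With DESeq2 3 rose and 1 fell. Without the cell line in the edgeR model 0 of the 14 passed, with 5 at an unadjusted p under 0.05, and the adjusted p of these 3 genes were 0.251, 0.0717 and 0.0726. *Tnfrsf1a*, the tumor necrosis factor receptor, had a log2 fold change of -0.17 and did not pass (adjusted p = 0.251, edgeR).

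Of 9 tested cAMP-response genes, 3 rose, 1 fell and 5 did not pass, beside the same shares of all genes. *Sik1*, a kinase induced by cAMP, rose by 1.15 (adjusted p = 6.79e-05, edgeR) and *Dusp1*, a phosphatase of MAP kinases, by 1.14 (adjusted p = 0.00197, edgeR). Without the cell line 0 of the 9 rose and 1 fell, so the calls of *Sik1* and *Dusp1* were lost (adjusted p = 0.110 and 0.0842, edgeR). *Areg*, an EGF receptor ligand, fell by 1.92 (adjusted p = 0.000259, edgeR) and also passed without the cell line (0.0334). Of 4 tested lipoxygenase and leukotriene genes 1 rose, *Cysltr1*, a leukotriene receptor (0.85, adjusted p = 0.000573, edgeR). *Alox5ap*, which presents arachidonic acid to 5-lipoxygenase, was at 17.7 TPM in MEFs labelled *Tsc2*+/+ and 0.385 TPM in those labelled *Tsc2*-/-, and *Lta4h*, leukotriene A4 hydrolase, at 69.0 and 115 TPM.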
